A study of Mus musculus with 7 samples.

Results

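Adropin, encoded by Enho, and 9 other proteins that the liver releases into the blood were examined as transcripts in livers of HFD-fed WT and TET1 KO mice. The genes were taken by name as Enho, Eda, Fetub, Ahsg, Lect2, Fst, Gdf15, Inhbe, Tsku and Selenop, which are 10 of the 51426 genes listed in the count tables. Enho was higher in TET1 KO livers, and it was the only one of the 10 genes past an adjusted p of 0.05 in edgeR (0.0418). That call was lost in 5 of the 7 fits that left out a liver (up to 0.154) and with robust dispersions (0.0863). Eda, Inhbe and Selenop lay lower in every TET1 KO liver than in every WT liver, and Fetub lay just higher with TMM scaling. Over all tested genes, 10.8% lay apart in the lower and 11.7% in the higher direction. None of Eda, Inhbe, Selenop and Fetub passed an adjusted p of 0.05 in edgeR, while Eda passed it in DESeq2 (0.0414). In edgeR, 0.874% of all tested genes were called higher and 1.15% lower.

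Hepatokines are secreted proteins by which hepatocytes act on muscle, fat, brain, bone and the liver itself, much as adipokines do for fat. Their transcripts are made at very different levels, since some of the products are bulk plasma proteins (fetuin-A, selenoprotein P) and others are signals that act at low concentration (adropin, GDF15, follistatin). TET1 is a dioxygenase that oxidizes 5-methylcytosine and thereby takes part in removing DNA methylation. DNA methylation was not measured in these libraries.

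The libraries came from 3 WT and 4 TET1 KO livers of male mice. The labels give C57BL/6J as the strain of every mouse, whereas the methods of the study list the purchased TET1 KO mice as B6;129S4-Tet1tm1.1Jae/J, a mixed stock, and state no backcross for them. TET1 KO is a deletion of Tet1 in the whole body and not in the liver alone, and the sequenced mice are described as TET1-/- and TET1wt/wt, which the study writes apart from its Cre-deleted whole-body line. All mice had been fed an HFD, a diet with 60% of its calories from fat, for 16 weeks from 8 weeks of age, and no group on normal chow was part of this comparison. The values are counts of reads on each gene, which were scaled here by library size and TMM factors to CPM, the counts of a gene relative to the scaled library total.

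Library totals ranged from 15005277 to 22746138 counts, so that 1 CPM stood for 15.0 to 22.7 counts before scaling. For Tet1 itself, 1, 4 and 1 reads were counted in WT replicates 1 to 3 and 2, 1, 4 and 1 reads in TET1 KO replicates 1 to 4, so its transcript was near zero in both groups and these counts check no label (exact two-sided permutation test, p = 0.714). Hepatocyte markers summed to 64158 to 85744 CPM in WT and 76945 to 84312 CPM in TET1 KO livers, and 0 of 10 passed the test (Apoa1 had the smallest p, with an adjusted p of 0.0818). In bulk tissue, fewer cells of a type and less RNA per cell cannot be told apart. The labels give no batch or date, so whether a batch moved with the genotype was not tested.

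Promoter sequences, 250 bases before and 50 bases from the start site on, were available from RefSeq (GRCm38.p6) for 8 of the 10 genes, in 13 windows. CpG dinucleotides, the sites that carry most DNA methylation, numbered 22 in the Eda window and 28 or 30 in the Tsku windows, against a median of 7 over the 32851 promoters of the table. The windows of the other genes held between 1 (Gdf15) and 10 (Fetub) CpG. Eda and the upstream window of Fetub are shown as examples of a CpG-rich promoter and of one near the median, with each CpG in capitals. The downstream window of Fetub held 10 CpG, that of Inhbe 6, and those of Selenop 4, 4 and 8. No relation of CpG number to the direction of a gene was tested.
Eda, chrX:99975356-99975655, plus strand: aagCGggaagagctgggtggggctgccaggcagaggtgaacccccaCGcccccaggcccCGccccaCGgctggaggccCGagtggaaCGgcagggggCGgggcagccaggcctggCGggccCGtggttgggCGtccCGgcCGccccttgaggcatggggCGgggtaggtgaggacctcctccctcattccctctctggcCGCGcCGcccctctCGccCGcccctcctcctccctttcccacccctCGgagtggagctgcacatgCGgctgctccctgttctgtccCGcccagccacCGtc
Fetub, chr16:22918132-22918431, plus strand: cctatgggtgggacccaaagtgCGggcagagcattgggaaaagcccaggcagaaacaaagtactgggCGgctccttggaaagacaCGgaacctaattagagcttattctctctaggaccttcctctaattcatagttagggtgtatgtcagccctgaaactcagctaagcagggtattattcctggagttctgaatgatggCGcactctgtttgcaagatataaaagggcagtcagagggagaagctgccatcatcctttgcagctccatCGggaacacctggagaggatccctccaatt

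Inhbe and Lect2 are shown for the motifs that match factors known to act on them or on their relatives. In these sequences the capitals mark, for Inhbe, a match to the ATF4-type motif TGATGNAA, and for Lect2 a match to the TCF/LEF motif CTTTGAT, each searched on both strands.
Inhbe, chr10:127351799-127352098, minus strand: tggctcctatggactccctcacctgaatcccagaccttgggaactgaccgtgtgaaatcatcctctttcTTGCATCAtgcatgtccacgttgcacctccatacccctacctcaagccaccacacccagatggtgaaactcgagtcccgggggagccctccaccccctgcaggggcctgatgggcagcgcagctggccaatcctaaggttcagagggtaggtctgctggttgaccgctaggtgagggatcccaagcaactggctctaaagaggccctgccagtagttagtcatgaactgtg
Lect2, chr13:56548489-56548788, minus strand: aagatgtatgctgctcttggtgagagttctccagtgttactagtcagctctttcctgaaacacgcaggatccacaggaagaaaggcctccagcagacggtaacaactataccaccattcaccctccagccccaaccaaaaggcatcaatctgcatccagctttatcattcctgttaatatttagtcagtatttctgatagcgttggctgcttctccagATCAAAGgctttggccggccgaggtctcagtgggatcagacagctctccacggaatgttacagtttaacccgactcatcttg

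The Inhbe match began at position -181 from the start site, on the strand opposite to the gene, and such a match occurred in 3.97% of all promoters of this length. The Lect2 match began at position -32, also on the opposite strand, and 3.73% of promoters held one. Neither motif was found in the windows of the other 6 genes, Gdf15 included. A match of letters is a description of the window, not evidence of binding. Enho and Fst had no entry in the table.

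Ranked by CPM per kb of exon, so that genes of different length could be compared, Ahsg was the highest of the 10 genes in WT livers, with 3058 ± 332 CPM per kb (SD, n = 3), and Selenop followed with 2016 ± 278. Lect2 and Fetub came next at 211 ± 31.4 and 181 ± 32.4 CPM per kb, and their ranges overlapped. Inhbe (66.6 ± 3.22) and Tsku (43.6 ± 10.5) held the middle. At the low end, Gdf15 (6.86 ± 5.06) and Enho (4.85 ± 4.12) overlapped, and Fst (0.760 ± 0.200) and Eda (0.262 ± 0.0484) closed the order. In TET1 KO livers the order of the means changed in only 2 places. Fetub came before Lect2, with overlapping ranges, and Enho at 23.8 ± 8.05 CPM per kb (SD, n = 4) came before Gdf15 at 4.11 ± 2.60, with ranges that did not overlap. In those livers Enho also overlapped with Tsku, Tsku with Inhbe, and Gdf15 with Fst.

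**Figure D1:**
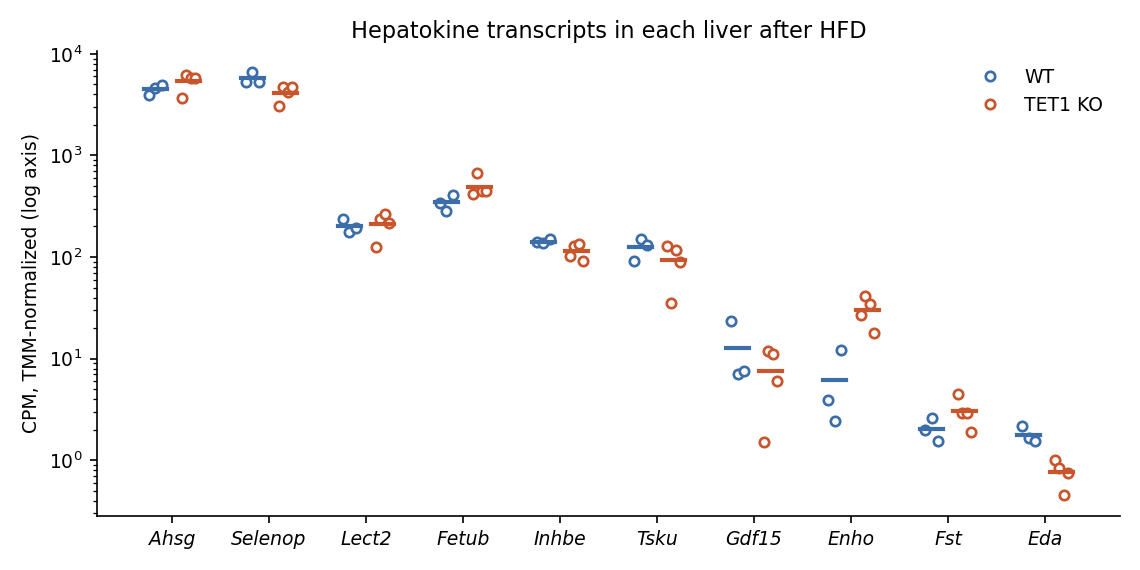
CPM (TMM-normalized, log axis) of the 10 hepatokine transcripts in each of 3 WT (blue) and 4 TET1 KO (orange) livers; circles are single livers and bars are group means. The genes are ordered by WT level per kb of exon; Enho shows the largest ratio of group means, and Gdf15 the widest spread within TET1 KO.

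Of the 10 genes, all of which passed the filter on low counts, 1 was called higher and 0 were called lower in TET1 KO livers (edgeR quasi-likelihood test, adjusted p under 0.05 over 14754 tested genes). Over all tested genes 0.874% were called higher and 1.15% lower. An unadjusted p under 0.05 was found for 3 of the 10 (Enho, Eda and Fetub), where 26.3% of all tested genes had one. DESeq2 called Enho higher and Eda lower. The groups did not overlap in 2 genes that were higher (Enho and Fetub) and 3 that were lower (Eda, Inhbe and Selenop), where 11.7% of all tested genes were apart in the higher and 10.8% in the lower direction. Scaled to library size only, Fetub overlapped and the other 4 stayed apart, against 7.44% of all tested genes in the higher and 15.2% in the lower direction. The median log2 fold change of the 10 genes was -0.12, against 0.01 for all tested genes, with 5 genes above and 5 below 0.

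**Figure D2:**
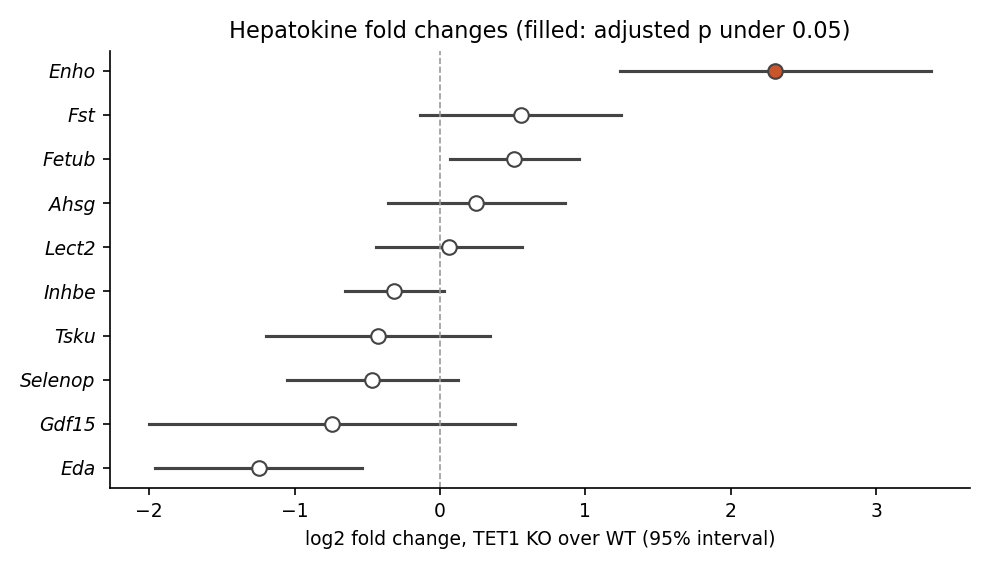
Log2 fold change of each hepatokine transcript, TET1 KO over WT, with its 95% interval from edgeR; the filled circle is the gene with an adjusted p under 0.05. The intervals of Enho (1.24 to 3.38), Fetub (0.07 to 0.95) and Eda (-1.96 to -0.54) exclude 0, and those of the other 7 genes include it.

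Enho (ENSMUSG00000028445, chromosome 4 of GRCm38 from 41638144 to 41640302, minus strand) encodes adropin, a small secreted peptide of liver and brain linked to fuel choice and glucose handling. It had 3.89, 2.45 and 12.1 CPM in the WT livers and 26.9, 41.8, 34.2 and 17.9 CPM in the TET1 KO livers. The lowest TET1 KO liver, replicate 4, was 1.47 times the highest WT liver, replicate 3. The group means were 6.16 ± 5.23 CPM (SD, n = 3) and 30.2 ± 10.2 CPM (SD, n = 4), a ratio of 4.91. The log2 fold change was 2.31 (SE 0.48, 95% interval 1.24 to 3.38, edgeR adjusted p = 0.0418), with rank 217 by p among the tested genes. Of all tested genes, 0.535% had an absolute log2 fold change at least as large.

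The WT livers differed among themselves by 4.96 times in Enho and the TET1 KO livers by 2.34 times. WT replicate 3, the highest WT liver, stood apart in other respects. Neutrophil markers summed to 35.04 CPM there, mostly S100a8 (13.3) and S100a9 (16.9). They summed to 4.43 and 2.24 CPM in WT replicates 1 and 2 and to 1.44 to 9.02 CPM in the TET1 KO livers. Lcn2 had 764 CPM in WT replicate 3, against 30.6 and 16.7 in the other WT livers and 2.82 to 152 in TET1 KO. Orm2 had 587 CPM there, against 40.6 and 24.4 in the other WT livers and 7.45 to 156 in TET1 KO. The part of these genes in the Enho level was not tested. Without this liver the log2 fold change of Enho was 3.24 (adjusted p = 0.00286). Without WT replicate 2 it was 1.91 (adjusted p = 0.154), and the call was also lost without WT replicate 1 (0.0678) and without TET1 KO replicates 1 (0.0638), 2 (0.0926) or 3 (0.103). Robust dispersions gave an adjusted p of 0.0863 and DESeq2 gave 0.00869, and the alternatives together spanned 0.00286 to 0.154, with a fold change above 0 in each.

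**Figure D3:**
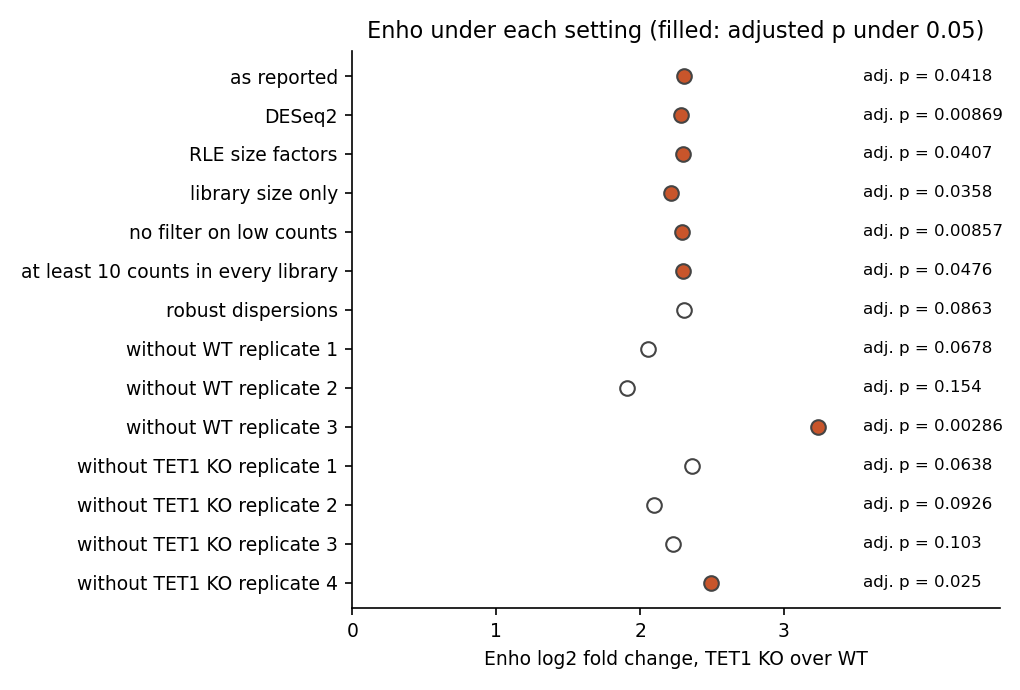
Enho log2 fold change, TET1 KO over WT, under each setting except the replicate block, with its adjusted p at the right. Filled circles have an adjusted p under 0.05. The fold change stays between 1.91 and 3.24, while 5 of the 7 fits that leave out a liver, and the fit with robust dispersions, have an adjusted p over 0.05.

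The genes whose level over the 7 livers was most like that of Enho were named by the root mean square difference of their centred log2 CPM, for which smaller is more alike. Mup1 (0.277) and Mup12 (0.280), major urinary proteins that carry pheromones and are made in bulk by male mouse liver, came first. Gm17167 (0.333), Mup14 (0.457) and Hsd3b5 (0.490), a male-typical steroid dehydrogenase of liver, followed, where the deviation of Enho from its own mean was 1.44 on the same scale. Mup1 had 198, 120 and 376 CPM in WT and 1108, 1369, 1741 and 634 CPM in TET1 KO livers. Like Enho, it was highest in replicate 3 among the WT livers and lowest in replicate 4 among the TET1 KO livers. Mup1 and Mup12 were called higher, with log2 fold changes of 2.39 (adjusted p = 0.0214) and 2.65 (adjusted p = 0.00970). The Mup genes are near-identical copies, so the counting may have split or shared their reads, and their single values are uncertain. Hsd3b5 had 14.2, 4.23 and 63.2 CPM in WT and 129, 145, 147 and 66.0 CPM in the TET1 KO group, a log2 fold change of 2.16 (adjusted p = 0.0954). These genes were picked for their likeness over the same livers, so their direction was fixed by the choice.

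The genes around Enho were looked at in the same libraries. Dnaic1, a dynein gene on the plus strand that meets the end of Enho with an overlap of 15 bases, had 4, 0 and 6 counts in WT and 16, 17, 21 and 6 counts in TET1 KO livers. Gm12405, a non-coding RNA gene on the plus strand 2673 bases from Enho on its upstream side, had 1, 0 and 1 counts in WT and 17, 15, 19 and 0 counts in TET1 KO livers. Neither passed the test, with adjusted p-values of 0.0949 for Dnaic1 and 0.0616 for Gm12405, and both overlapped between the groups through TET1 KO replicate 4, the liver in which Enho was also lowest of its group. Fam219a, which lies 68537 bases away, had a log2 fold change of 0.22 (adjusted p = 0.515). The counting rule for strand is not given in the sources used here, so reads of Enho and of its neighbours on the other strand may not be fully separated, and their part in the Enho counts was not tested.

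Nuclear receptors linked to Enho were tested as a list, which includes LXR and REV-ERB proteins. Of 8 that passed the filter, 0 were called, 7 had a log2 fold change above 0, and the median was 0.15. Gpr19, a proposed adropin receptor, was at 3.53 to 4.58 CPM in WT and 3.62 to 4.91 CPM in TET1 KO livers (log2 fold change 0.15, adjusted p = 0.649).

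Eda (ENSMUSG00000059327, chromosome X from 99975606 to 100400760, plus strand) encodes ectodysplasin A, a TNF family ligand known from hair and tooth development and, in liver, as a hepatokine of obesity. It was the lowest of the 10 transcripts. It had 2.17, 1.66 and 1.55 CPM in the WT livers, from 28 to 44 counts, and 1.00, 0.845, 0.460 and 0.742 CPM in the TET1 KO livers, from 9 to 16 counts. The highest TET1 KO liver lay below the lowest WT liver by a factor of 1.54. The log2 fold change was -1.25 (SE 0.32, 95% interval -1.96 to -0.54), and edgeR's adjusted p was 0.0655, where DESeq2 gave 0.0414. The alternatives spanned adjusted p-values of 0.0414 to 0.239 and log2 fold changes of -1.40 to -1.07, all below 0. The exact two-sided permutation test on log2 CPM gave an unadjusted p = 0.0286, the smallest that 35 splits of 7 livers allow. Groups that did not overlap, in one direction or the other, were found in 22.5% of all tested genes.

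Ectodysplasin A comes in 2 splice forms, of which A1 binds EDAR and A2 binds EDA2R, and these gene counts do not separate them. Eda2r fell in TET1 KO livers. It had 2.61, 2.16 and 1.71 CPM in WT (31 to 53 counts) and 0.125, 0.423, 0.205 and 0.371 CPM in the TET1 KO group (2 to 8 counts), at a log2 fold change of -2.92 (SE 0.38, adjusted p = 0.00720). Its adjusted p was under 0.05 with each liver left out, with a highest value of 0.0437 without WT replicate 2. Edar had at most 3 counts in any liver, and Edaradd, its adaptor, at most 6, so neither was tested.

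Tnfrsf19, a related receptor of the TNF family, also fell, from 7.92, 9.37 and 4.64 CPM in WT to 2.82, 3.17, 3.12 and 4.08 CPM in the TET1 KO group, at a log2 fold change of -1.15 (SE 0.25, adjusted p = 0.0461). This call was lost without WT replicate 1 (0.0669), WT replicate 2 (0.239), or TET1 KO replicate 1 (0.0819), 2 (0.101) or 3 (0.117), within a range of 0.00351 to 0.239. Traf6, which carries the signal inside the cell, had 12.1, 14.6 and 15.7 CPM in WT and 10.4, 11.3, 9.56 and 11.8 CPM in the TET1 KO group, a log2 fold change of -0.39 that did not pass (adjusted p = 0.141). Of the 3 genes of this list that were tested, 2 were called lower and 0 higher, against 1.15% and 0.874% of all tested genes. The groups did not overlap in any of the 3, where 10.8% of all tested genes lay apart in the lower direction. The list was written with earlier results of these data known.

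**Figure D4:**
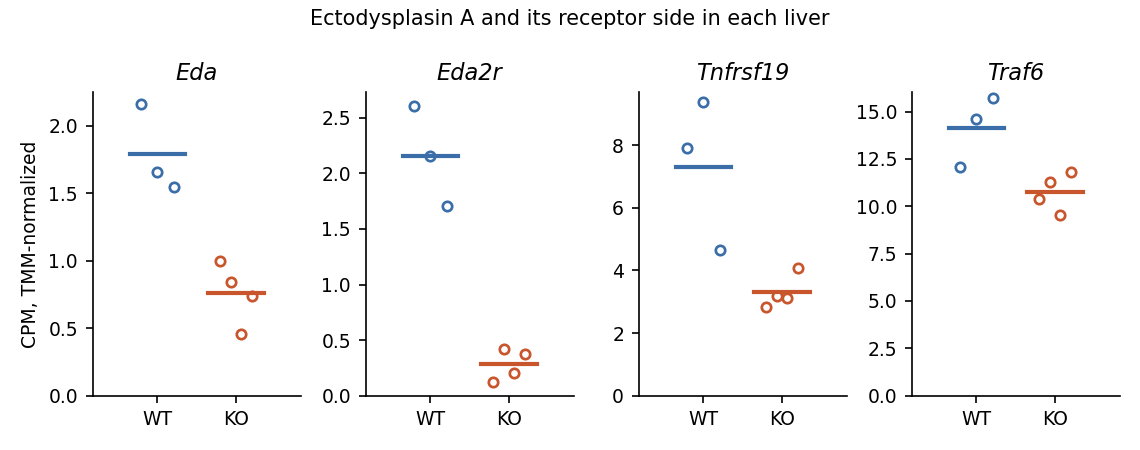
CPM (TMM-normalized) of Eda, its receptor Eda2r, the related receptor Tnfrsf19 and the adaptor Traf6 in each WT and TET1 KO liver; circles are single livers and bars are group means. In each gene the groups are apart, with TET1 KO lower; Eda2r goes from 1.71 to 2.61 CPM in WT to at most 0.423 CPM in TET1 KO, and Eda and Traf6 did not pass the adjusted threshold.

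Fetub (ENSMUSG00000022871, chromosome 16 from 22918382 to 22939768, plus strand) encodes fetuin-B, a plasma cystatin that inhibits metalloproteases of the astacin family and has been linked to fatty liver. It had 343, 287 and 410 CPM in WT and 414, 665, 449 and 446 CPM in TET1 KO livers. The groups were apart by a factor of only 1.01, between WT replicate 3 and TET1 KO replicate 1. Scaled to library size only they overlapped, at 415 CPM in WT replicate 3 and 406 CPM in TET1 KO replicate 1. On the log2 scale the difference was 0.51 (SE 0.20, 95% interval 0.07 to 0.95), with an edgeR adjusted p of 0.145. TET1 KO replicate 2 was far above the other 3 livers of its group, and without it the log2 fold change was 0.32 (adjusted p = 0.303, range over all alternatives 0.100 to 0.454).

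Ahsg (ENSMUSG00000022868, chromosome 16 from 22892015 to 22899451, plus strand) encodes fetuin-A, an abundant plasma protein that binds calcium phosphate and inhibits the insulin receptor, and lies 18.9 kb from Fetub. It had 3966, 4639 and 4919 CPM in WT and 3682, 6218, 5740 and 5809 CPM in TET1 KO livers. Replicates 2 to 4 of TET1 KO were above every WT liver and replicate 1 was below them all. In edgeR the log2 fold change was 0.25 (SE 0.28, 95% interval -0.36 to 0.86, adjusted p = 0.581). It was 0.39 without TET1 KO replicate 1 and 0.16 without WT replicate 1, TET1 KO replicate 2 or TMM scaling.

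The ratio of Ahsg to Fetub CPM was 11.6, 16.2 and 12.0 in WT and 8.88, 9.35, 12.8 and 13.0 in TET1 KO livers, so the groups overlapped. Hrg, histidine-rich glycoprotein, on the other side of Fetub at 11304 bases, had a log2 fold change of -0.02 (adjusted p = 0.959), and Dnajb11, beside Ahsg, one of -0.02 (adjusted p = 0.964). The list of cystatin family plasma proteins and fetuin partners had 4 tested genes, of which 0 were called in either direction. Kng1, kininogen, had the smallest p there, with a log2 fold change of 0.18 (adjusted p = 0.602), and the metalloproteases Mep1a, Mep1b and Astl were too low to test.

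Inhbe (ENSMUSG00000047492, chromosome 10 from 127349402 to 127351848, minus strand) encodes the activin βE subunit, a TGFβ family ligand made almost only by hepatocytes and known for limiting fat breakdown in adipose tissue. It had 140, 137 and 150 CPM in WT and 103, 128, 135 and 90.9 CPM in TET1 KO livers. The WT livers differed by at most 1.10 times, and the highest TET1 KO liver, replicate 3, lay just below the lowest WT liver, by a factor of 1.01. The log2 fold change was -0.31 (SE 0.15, 95% interval -0.65 to 0.03, adjusted p = 0.219), and the exact two-sided permutation test gave p = 0.114. Inhbe lies on the same chromosome as Tet1, at a distance of 64.5 Mb.

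Inhbc, which encodes the activin βC subunit and lies 4474 bases from Inhbe, had 91.3, 74.0 and 85.8 CPM in WT and 133, 112, 127 and 87.5 CPM in the TET1 KO group. Its log2 fold change was 0.45 (adjusted p = 0.117), opposite in sign to that of Inhbe, and neither gene passed. The ratio of Inhbe to Inhbc CPM was 1.53, 1.85 and 1.75 in WT and 0.780, 1.15, 1.07 and 1.04 in TET1 KO livers. In this ratio the groups did not overlap and TET1 KO was the lower. It was chosen after the values had been seen and is given with no test.

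**Figure D5:**
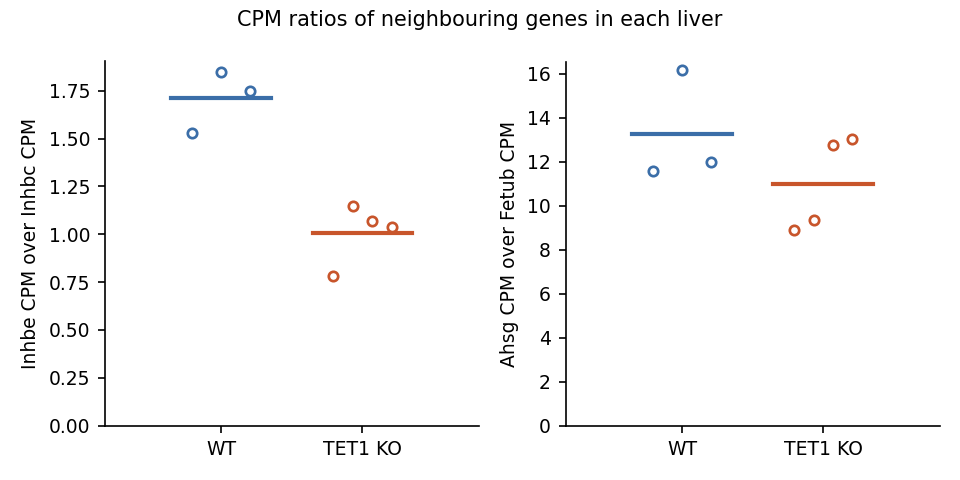
Ratio of CPM between neighbouring genes, Inhbe over Inhbc (left) and Ahsg over Fetub (right), in each WT and TET1 KO liver; circles are single livers and bars are group means. The Inhbe ratio goes from 1.53 to 1.85 in WT to 0.780 to 1.15 in TET1 KO without overlap, and the Ahsg ratio overlaps.

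Among the other activin and GDF ligands, 7 were tested and 0 were called in either direction, with a median log2 fold change of -0.01. Inhbb, the activin βB subunit, had the smallest p, with 2.66, 4.68 and 3.64 CPM in WT and 2.00, 1.62, 1.89 and 1.72 CPM in the TET1 KO group, a log2 fold change of -1.02 (SE 0.25, adjusted p = 0.0590). Its groups did not overlap. Mstn, which encodes myostatin, had no count in any liver.

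Fst (ENSMUSG00000021765, chromosome 13 from 114452262 to 114458989, minus strand) encodes follistatin, which binds and neutralizes activins and myostatin. It had 1.97, 2.61 and 1.55 CPM in WT and 4.51, 2.89, 2.92 and 1.90 CPM in TET1 KO livers, from 28 to 72 counts. Replicates 1 to 3 of TET1 KO were above every WT liver and replicate 4 was among them. Fst had a log2 fold change of 0.56 (SE 0.31, 95% interval -0.14 to 1.25, adjusted p = 0.276), and without TET1 KO replicate 1, the highest liver, it was 0.31 (adjusted p = 0.544). Of 16 tested activin receptors, antagonists and SMADs, 0 were called, with 8 above and 8 below 0. Acvr2b, a type II receptor of activins, had the smallest p, with 1.48, 1.08 and 0.552 CPM in WT and 4.45, 3.804, 2.05 and 2.55 CPM in TET1 KO livers. The groups did not overlap, and the log2 fold change of 1.60 (SE 0.38) had an adjusted p of 0.0550.

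Gdf15 (ENSMUSG00000038508, chromosome 8 from 70629393 to 70632470, minus strand) encodes a stress-induced hormone that lowers food intake through GFRAL in the hindbrain. It had 23.5, 7.09 and 7.51 CPM in WT and 1.50, 11.8, 11.0 and 6.03 CPM in TET1 KO livers, the widest range within TET1 KO of the 10 genes (7.87 times). WT replicate 1 was the highest and TET1 KO replicate 1 the lowest liver, and the other 5 livers lay between 6.03 and 11.8 CPM. On the log2 scale the difference was -0.74 (SE 0.57, 95% interval -2.0 to 0.52, adjusted p = 0.420), and without WT replicate 1 it was 0.05. Gfral had no count, and its coreceptor Ret had at most 2 counts in any liver.

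Gdf15 and Inhbe are known to be induced through ATF4 and CHOP, the transcription factors of the integrated stress response, so a list of other targets of these factors, with Atf4 and Ddit3 themselves, was set beside them. Of 13 tested, 1 was called lower and 0 higher, 10 had a log2 fold change below 0, and the median was -0.40. Vldlr, the lipoprotein receptor, fell, from 10.6, 9.99 and 5.52 CPM in WT to 2.50, 4.93, 3.53 and 3.94 CPM in the TET1 KO group, at a log2 fold change of -1.23 (SE 0.27, adjusted p = 0.0472). The call was lost without WT replicates 1 (0.0720) or 2 (0.227), without TET1 KO replicates 1 (0.0789), 2 (0.0593) or 3 (0.118), and with at least 10 counts required in every library (0.0504), within a range of 0.00228 to 0.227. Atf4 itself had a log2 fold change of 0.10 (adjusted p = 0.708) and Ddit3, which encodes CHOP, one of -0.09 (adjusted p = 0.777).

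Selenop (ENSMUSG00000064373, chromosome 15 from 3270767 to 3280510, plus strand) encodes selenoprotein P, which carries selenium from the liver to other tissues and impairs insulin signalling when in excess. It had 5327, 6648 and 5232 CPM in WT and 3035, 4706, 4193 and 4677 CPM in TET1 KO livers. The TET1 KO livers were all lower than the lowest WT liver, by a factor of at least 1.11. In edgeR the log2 fold change was -0.47 (SE 0.27, 95% interval -1.05 to 0.12, adjusted p = 0.281), while the exact two-sided permutation test gave p = 0.0286, the smallest possible. Scaling to library size only raised that p to 0.0571. Ccdc152, which overlaps Selenop by 412 bases on the other strand, had at most 7 counts.

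Of 17 other selenoproteins tested, 0 were called, with 11 below and 6 above 0 and a median log2 fold change of -0.07. Txnrd1, thioredoxin reductase, had the smallest p, with 73.5, 107 and 92.6 CPM in WT and 53.8, 65.4, 57.4 and 66.3 CPM in the TET1 KO group, a log2 fold change of -0.59 (SE 0.15, adjusted p = 0.0655). Of 9 genes of selenoprotein synthesis, 0 were called, and Rpl30 had the smallest p (log2 fold change 0.29, adjusted p = 0.224). TET1 KO replicate 1 was the lowest of the 7 livers for Selenop and for the summed selenoproteins, at 2300 CPM against 3286 to 3697 CPM in the other 6 livers.

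Lect2 (ENSMUSG00000021539, chromosome 13 from 56529734 to 56548559, minus strand) encodes leukocyte cell-derived chemotaxin 2, a hepatokine of obesity that binds MET and TIE1 and is a target of β-catenin. It had 235, 177 and 194 CPM in WT and 125, 237, 265 and 218 CPM in TET1 KO livers. The groups overlapped, with TET1 KO replicates 1 and 3 as the lowest and the highest liver. The log2 fold change was 0.06 (SE 0.23, 95% interval -0.44 to 0.57, adjusted p = 0.878), and its sign changed with the scaling and with the liver left out. Fbxl21, which overlaps Lect2 by 8165 bases on the other strand, had at most 31 counts and a log2 fold change of 0.02 (adjusted p = 0.974).

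Of 14 β-catenin targets of liver, 0 were called, with 9 above and 5 below 0. Notum, a secreted inhibitor of WNT, had the smallest p, with 34.9, 27.5 and 29.9 CPM in WT and 54.7, 35.2, 51.2 and 35.4 CPM in TET1 KO livers, and groups that did not overlap (log2 fold change 0.52, SE 0.19, adjusted p = 0.119). Met had a log2 fold change of 0.08 (adjusted p = 0.797) and Tie1 one of 0.12 (adjusted p = 0.671).

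Tsku (ENSMUSG00000049580, chromosome 7 from 98350668 to 98361390, minus strand) encodes tsukushi, a small leucine-rich proteoglycan released by fatty or activated liver that binds TGFβ, WNT and FZD4. It had 91.8, 151 and 131 CPM in WT and 128, 35.01, 118 and 90.0 CPM in TET1 KO livers. TET1 KO replicate 2 was below all other livers, which overlapped between the groups. Its log2 fold change was -0.43 (SE 0.35, 95% interval -1.19 to 0.34, adjusted p = 0.448), and without that liver it was -0.17, and -0.27 without WT replicate 2. Acer3, which lies 29460 bases away, had a log2 fold change of -0.46 (adjusted p = 0.105).

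In the list of receptors of the hepatokines, 8 genes were tested, with a median log2 fold change of 0.10. Of these, 1 was called lower and 0 higher, against 1.15% and 0.874% of all tested genes. The called gene, Tgfbr2, is the type II receptor of TGFβ, which tsukushi binds but which is not among the 10 proteins. Tgfbr2 fell from 15.5, 18.4 and 18.8 CPM in WT to 10.3, 11.1, 10.8 and 10.6 CPM in the TET1 KO group. Its log2 fold change was -0.72 (SE 0.14, edgeR adjusted p = 0.0275). The call was lost without WT replicates 2 (0.127) or 3 (0.0752) and without TET1 KO replicates 2 (0.0610) or 3 (0.0772), within a range of 0.000845 to 0.127. Insr, the insulin receptor that fetuin-A inhibits, had a log2 fold change of 0.13 (adjusted p = 0.522), and Fzd4 one of -0.26 (adjusted p = 0.431).

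Of 29 other hepatokines tested, 1 was called higher and 0 lower, with a median log2 fold change of 0.07. The called gene was Igfbp2, an IGF binding protein, with 68.5 to 111 CPM in WT and 358 to 476 CPM in the TET1 KO group. Its log2 fold change was 2.25 (SE 0.20, adjusted p = 0.00116), close in size to that of Enho but with a smaller error.

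No single liver was the extreme one throughout. TET1 KO replicate 1 was the lowest of the 7 livers in 4 of the 10 genes (Ahsg, Lect2, Gdf15 and Selenop) and the highest in Fst. TET1 KO replicate 2 was the highest in Enho, Fetub and Ahsg and the lowest in Tsku. Adipocyte markers were highest in that liver, summing to 19.4 CPM against 0.278 to 3.25 CPM in the other livers. Adipoq, the adipocyte hormone adiponectin, was at 4.23 CPM there, at 0.373 CPM in WT replicate 2 and at 0 elsewhere, and whether this bears on its hepatokine levels was not tested.

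Markers of other liver cells were compared because a change in their share could move with the genotype. Cholangiocyte markers summed to 29.7 to 38.2 CPM in WT and 46.3 to 68.3 CPM in TET1 KO livers. Spp1 was the largest part of each sum, at 19.8 to 29.1 CPM in WT and 30.7 to 43.7 CPM in TET1 KO livers. The sum therefore mostly follows that gene. All 5 tested genes had a log2 fold change above 0, with a median of 1.22, but 0 passed the test. Cftr and Tspan8 were too low to test. Sox9 had the smallest p there (adjusted p = 0.0569), and Krt19, Krt7 and Epcam were detected in every liver. TET1 KO replicate 4 stood apart in several of these markers, with 6.68 CPM of Krt19 against 1.06 to 1.69 CPM in the other TET1 KO livers. The same liver had 4.87 CPM of Epcam against 0.689 to 0.986 CPM, and 2.69 CPM of Krt7 against 0.767 to 1.41 CPM. In Sox9 it was instead the lowest of its group, at 9.46 CPM against 12.6 to 20.9 CPM. Enho was also lowest there, and without this liver its log2 fold change was 2.49 (edgeR adjusted p = 0.0250). The part of these cells in the hepatokine values was not tested. Stellate cell markers overlapped in their sum (336 to 571 CPM in WT, 342 to 486 CPM in TET1 KO), with 1 of 10 called lower. That gene was Rgs5, at 22.7 to 29.5 CPM in WT and 13.7 to 16.5 CPM in TET1 KO livers (log2 fold change -0.67, adjusted p = 0.0460), a call that was lost when any liver except TET1 KO replicate 4 was left out (0.0522 to 0.206, the highest without WT replicate 2).

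In the endothelial (10 genes), Kupffer cell and macrophage (10), T and NK cell (5), B cell (5), neutrophil (2) and adipocyte (1) markers tested, 0 were called. The smallest p belonged to Lyve1 (adjusted p = 0.0778), Gpnmb (0.164), Cd4 (0.0954), Jchain (0.107), S100a8 (0.215) and Cfd (0.952), respectively. The summed levels overlapped between the groups in each of these 6 lists, at 238 to 292 CPM for endothelial and 157 to 341 CPM for Kupffer cell markers. Their part in the hepatokine levels was not tested.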

How the data were processed

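Poly(A) or rRNA-depleted RNA of 7 livers was sequenced from strand-specific libraries. The authors trimmed reads with Trimmomatic 0.36, aligned them with GSNAP to GRCm38 and counted them with featureCounts 1.5.3, as the submitters' processing notes name these tools, and deposited raw counts per Ensembl gene for each liver. Groups and replicate numbers came from the sample titles. The strand setting of the counting is not given in the sources used here.

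The 51431 entries were joined by identifier, 5 repeats were left out, and 51426 genes remained. In R 4.3.3, edgeR 4.0.16 kept 14754 genes by filterByExpr (at least 99.88% of each library's counts), scaled by TMM and compared TET1 KO with WT by the quasi-likelihood test without covariates (legacy = FALSE, robust = FALSE). The calling threshold was a Benjamini-Hochberg adjusted p of 0.05 over all tested genes, and 95% intervals used the t quantile of the fit. Each standard error came from the fold change and F. The biological coefficient of variation common to all genes was 0.208. The test of a single value was an exact two-sided permutation over 35 splits of the 7 livers, on log2 CPM with a prior count of 2. The labels give no litter or processing day, so p-values measure only the spread between these samples. No pair of libraries of a group differed by less than the sampling noise (chi-square per degree of freedom at least 24.95).

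Alternatives were DESeq2 1.42.0, a prior count of 0.5, leaving out each liver, robust dispersions, a replicate block, scaling by RLE or by library size only, and either no filter or a minimum of 10 counts in every library. Scripts were tested on simulated counts. The 10 genes, the gene lists and the tests were chosen with earlier results of these data known. Named were the 10 genes, Tet1, every called gene or else the gene with the smallest p of each list, the 5 genes most like a called hepatokine, and the nearest genes. Other genes, as well as the ratios, were named after their values were seen. Positions and promoters are RefSeq's for GRCm38.p6. Exon lengths and the strands of Enho, Fst and overlapping genes came from GENCODE M1 by identifier or symbol. Protein sequences were not used here. A single gene of 1 list is not reported here.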

Additional observations from a re-analysis of the deposited data

Results flagged for a closer look

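In the TET1 KO group, 31 values (Tet1, the 10 hepatokines and 20 summed gene lists) were searched for a liver far from the other 3, by the gap to its nearest neighbour over the whole range of the group and Dixon's 95% critical value for 4 livers. Chance alone flags about 1 in 20 groups, and 5 were found.

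Fetub stood out with 0.861, since TET1 KO replicate 2 had 665 CPM and the other livers 414 to 449 CPM. In 3 gene lists the summed CPM of TET1 KO replicate 1 was far below the rest of its group. These were the ATF4 and CHOP targets (0.833, 368 CPM against 568 to 609 CPM), the selenoproteins (0.866, 2300 CPM against 3286 to 3438 CPM) and the β-catenin targets (0.944, 5546 CPM against 9994 to 10256 CPM). Such a sum follows its most abundant genes. In the β-catenin list Cyp2e1, a cytochrome P450, had 3953 CPM in that liver and 7053 to 7642 CPM in the other TET1 KO livers, and Oat, ornithine aminotransferase, 210 CPM against 823 to 1073 CPM, whereas Notum (54.7 CPM) and Tbx3 (56.2 CPM) were highest there. In the ATF4 and CHOP list Atf5 had 133 CPM against 232 to 270 CPM and Cth, cystathionine γ-lyase, 77.6 CPM against 186 to 217 CPM, whereas Atf4 (112 CPM), Ppp1r15a (13.0 CPM) and Chac1 (3.07 CPM) were highest there. Adipocyte markers stood out with 0.982, since TET1 KO replicate 2 summed to 19.4 CPM and the others to 0.278 to 0.614 CPM. The cause was not tested in any of these.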

How the results depend on the processing

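Depth limits Eda, Eda2r and Fst, which rest on fewer than 100 counts in each liver. Over all tested genes, 129 were called higher and 169 lower. DESeq2 gave 633 and 699, no filter on low counts 245 and 347, and library size only 312 lower, with the median log2 fold change moved by -0.09 and the share of higher calls from 43.3% to 25.5%. Leaving out 1 liver gave 16 (without WT replicate 2) to 427 (without TET1 KO replicate 4) higher and 21 to 464 lower genes. Of the 10 hepatokines, 1 was called higher, against 0 with robust dispersions and 0 to 1 with a liver left out, and 1 lower in DESeq2. In the other lists 1 gene was higher and 5 were lower. The higher count was 7 in DESeq2, 4 with no filter, 2 with robust dispersions and 1 to 5 with a liver left out (the most without TET1 KO replicate 4). The lower count was 15 in DESeq2, 9 with no filter, 3 with at least 10 counts in every library and 1 to 6 with a liver left out (1 without WT replicate 2 or TET1 KO replicate 3).

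The log2 fold change of Lect2 turned to -0.033 with library size only, and to -0.032, -0.011 and -0.075 without WT replicate 2 or TET1 KO replicates 2 or 3, within -0.075 to 0.25 over the fits that left out a liver. Its difference of mean log2 CPM turned to -0.075 with library size only. For Gdf15 the log2 fold change turned to 0.048 without WT replicate 1, within -1.04 to 0.048. The other 8 hepatokines kept their sign in every alternative that gave them a value, and Eda had none with at least 10 counts in every library. The cause was not tested.

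Deviations from the group means correlated at 0.209, -0.123 and -0.0964 between same-numbered livers. Between differently numbered livers the correlations ran from -0.300 to 0.311. With so few livers these values cannot show whether the replicate numbers pair the livers, and the labels give no litter. With the number as a replicate block, 671 genes were higher and 656 lower, 8 genes of the other lists were higher, Lect2 turned to -0.0072, and the adjusted p was 0.0174 for Enho and 0.0548 for Rgs5.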
